A study of Mus musculus with 5 samples.

Results

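The 29 genes described here encode the enzymes that build cholesterol and the SREBP system that sets how much of them a cell makes. They were taken as the rows of the deposited table that carry their symbols, out of 25873 named genes, and all 29 were found. All 29 also passed the filter of a mean of at least 1 RPKM (reads per kilobase of a gene's length, relative to all reads of its library), as did 11543 genes in all, so every member entered the tests. The libraries came from lineage-negative, tdTomato-positive cells sorted from the limb muscle of C57BL/6J mouse fetuses at E16.5 (embryonic day). All groups carried Pax7-CreER, a tamoxifen-dependent recombinase made in Pax7-expressing muscle progenitors, and the Rosa-tdTomato reporter, which labels those progenitors and their descendants. All mothers received oral tamoxifen at 240 mg/kg over 2 days, starting at E12.5. The wild-type control (WT) had no further allele and 2 libraries, the Notch1 cKO added Notch1f/f and had 1 library, and the Notch2 cKO added Notch2f/f and had 2 libraries. Each library is named by its labelled group and the tag in its column name: WT Em2, WT Em4, Notch1 cKO Em8, Notch2 cKO Em3 and Notch2 cKO Em4. The labels do not say whether the libraries of a group came from separate fetuses or litters. The p-values therefore rest on a spread between these libraries that may be technical. That spread was taken mostly from all tested genes together and little from each gene's own libraries.

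Cholesterol is made from acetyl-CoA in the mevalonate arm, which ends in farnesyl diphosphate, and in the sterol arm, which joins farnesyl units to squalene, closes the rings to lanosterol and trims lanosterol to cholesterol. When membranes of the endoplasmic reticulum run short of sterol, Scap carries the SREBP precursors to the Golgi, where the proteases encoded by Mbtps1 and Mbtps2 release the transcription factor. When sterol is plentiful, Insig proteins hold Scap in place. In growing muscle, as in other tissues, the pathway supplies sterol for new membrane and isoprenoid groups for signalling proteins.

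The pattern in these genes lay inside the Notch2 cKO pair. In Notch2 cKO Em4 most of the pathway stood above every other library, while in Notch2 cKO Em3 most members stood near or below the WT level. No member passed the test in any comparison of groups. The values are therefore given library by library.

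Promoter sequences are shown for 7 members: 5 that stood highest in Notch2 cKO Em4 and 2 that departed from the rest. Those of Idi1, Dhcr7 and Msmo1, which split more, are not shown. Annotated exons overlap their windows, but also those of Cyp51 and Insig1, so the members shown are a selection. Windows of the bases before the annotated start were taken from RefSeq (GRCm38.p6), which gave at least one window for 24 of the 29 members; Sqle, Fdft1, Stard4, Scd2 and Fdps had none. Each window is written 5′ to 3′ on the gene's own strand, with capitals on matches, on either strand, to the CCAAT box (CCAAT, the site of the factor NF-Y, a known partner of SREBP at sterol promoters) and to one form of the sterol regulatory element (TCACNCCAC, where N is any base). Hmgcs1, Lbr, Sc5d, Cyp51 and Insig1 were among the members highest in Notch2 cKO Em4, Ebp was lower in both Notch2 cKO libraries than in both WT libraries, and Mbtps2 was the only member below Notch2 cKO Em3 in Notch2 cKO Em4. Bases that an annotated GENCODE vM21 exon covers were left off, which shortened the Cyp51 and Insig1 windows by 49 bases each.
Hmgcs1 (chr13:119690101-119690350, plus strand): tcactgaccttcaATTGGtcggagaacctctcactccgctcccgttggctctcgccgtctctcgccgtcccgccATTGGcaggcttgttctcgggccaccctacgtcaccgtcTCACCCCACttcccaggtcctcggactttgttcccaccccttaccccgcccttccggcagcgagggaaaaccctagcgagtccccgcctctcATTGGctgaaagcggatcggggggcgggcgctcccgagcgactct
Lbr (chr1:181842402-181842651, minus strand): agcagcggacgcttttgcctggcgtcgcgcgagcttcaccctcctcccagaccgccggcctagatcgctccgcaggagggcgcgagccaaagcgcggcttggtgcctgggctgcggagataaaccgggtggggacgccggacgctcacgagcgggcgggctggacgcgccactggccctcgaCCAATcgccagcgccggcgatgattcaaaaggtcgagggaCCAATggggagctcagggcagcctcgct
Sc5d (chr9:42264301-42264550, minus strand): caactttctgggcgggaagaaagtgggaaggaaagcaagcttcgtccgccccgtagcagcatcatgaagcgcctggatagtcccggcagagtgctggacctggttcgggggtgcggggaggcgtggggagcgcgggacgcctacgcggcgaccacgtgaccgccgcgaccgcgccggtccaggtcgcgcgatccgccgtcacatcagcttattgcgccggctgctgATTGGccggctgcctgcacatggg
Cyp51 (chr5:4104747-4104947, minus strand): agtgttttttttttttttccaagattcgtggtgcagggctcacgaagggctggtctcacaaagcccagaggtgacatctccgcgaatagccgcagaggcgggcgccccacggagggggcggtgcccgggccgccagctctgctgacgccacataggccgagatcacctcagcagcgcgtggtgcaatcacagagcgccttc
Insig1 (chr5:28071162-28071362, plus strand): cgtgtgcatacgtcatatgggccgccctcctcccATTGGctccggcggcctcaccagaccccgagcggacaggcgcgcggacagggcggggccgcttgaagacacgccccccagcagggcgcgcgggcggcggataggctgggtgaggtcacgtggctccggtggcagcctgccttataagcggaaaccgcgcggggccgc
Ebp (chrX:8193513-8193762, minus strand): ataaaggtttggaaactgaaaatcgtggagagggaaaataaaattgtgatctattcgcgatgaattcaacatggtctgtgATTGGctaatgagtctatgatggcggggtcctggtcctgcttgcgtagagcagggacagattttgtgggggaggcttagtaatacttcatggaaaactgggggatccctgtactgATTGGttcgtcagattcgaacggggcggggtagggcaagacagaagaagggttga
Mbtps2 (chrX:157598716-157598965, minus strand): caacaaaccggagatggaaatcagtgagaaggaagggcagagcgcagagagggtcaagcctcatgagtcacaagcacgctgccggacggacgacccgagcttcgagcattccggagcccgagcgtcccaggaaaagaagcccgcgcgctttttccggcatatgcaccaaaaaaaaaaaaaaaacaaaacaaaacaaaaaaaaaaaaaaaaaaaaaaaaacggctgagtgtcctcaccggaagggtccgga
Hmgcs1 held 3 CCAAT boxes and the sterol regulatory element form, Lbr and Ebp held 2 CCAAT boxes each, Sc5d and Insig1 held 1 each, and Mbtps2 held neither motif. The CCAAT box of Cyp51, which begins 29 bases before its start, lies in the part left off.

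Over the full 250 bases before the start, a CCAAT box on either strand was present in at least one window of 20 of the 24 members with sequence (83.3%), against 41.6% of the 8880 tested genes with a window. Among the enzymes it was present in 15 of 16. The GC box (GGGCGG, a site of Sp1) was present in 21 of 24 members (87.5%), against 65.8% of tested genes. The element form TCACNCCAC was found in Hmgcs1 alone, or 4.17% of members, against 1.13% of tested genes. It begins 137 bases before the Hmgcs1 start and does not overlap a CCAAT box. Of the 32 member windows, 18 touch an annotated exon of the same or another gene. A match describes letters in the window, and the absence of one says nothing about binding by a factor.

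Library totals recovered from the values ran from 20740258 to 28827897 reads, and members had between 70 and 7522 reads in a library. Notch2 cKO Em3 stood apart: it had the lowest total, yet 12.7% of named genes were listed at 0 there, against 24.5% to 31.7% in the other libraries. Notch1 was 2.33 RPKM in Notch1 cKO Em8 and 7.26 to 13.5 RPKM elsewhere. Notch2 was 3.35 and 2.03 RPKM in the Notch2 cKO pair and 2.40 and 4.17 RPKM in the WT pair, so the libraries labelled Notch2 cKO did not separate from WT at the gene level. The sources used here do not name the exons that the floxed allele removes, and a gene-level value does not check their removal. The sorted cells carried the myogenic markers, led by Myog at 944 to 1737 RPKM.

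Members were expressed above the typical gene. Their mean over the 5 libraries ran from 3.06 RPKM for Mbtps2 to 114 RPKM for Fdps, with a median of 20.5 RPKM beside 9.95 RPKM over all tested genes. After Fdps the highest means were those of Lbr (49.0 RPKM), Fdft1 (48.1 RPKM), Acat2 (47.0 RPKM) and Msmo1 (41.8 RPKM). These levels are per kilobase and so can be set side by side. The members' exon lengths ran from 1461 to 9938 bases, with a median of 2816 bases beside 2616.5 bases over all tested genes.

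Notch2 cKO Em4 was the highest of the 5 libraries for 21 of the 29 members, where 33.3% of all tested genes were highest there. WT Em4 was highest for 5 members, WT Em2 for 2, Notch2 cKO Em3 for 1 and Notch1 cKO Em8 for 0. At the low end, Notch2 cKO Em3 was lowest for 13 members and WT Em2 for 11. Apart from the count of 21, shares over all tested genes were not taken, so these counts cannot be set against a background. Over all tested genes the median ratio of WT Em4 to WT Em2 was 1.19, so WT Em2 ran low beyond the members. Relative to each gene's mean on the log2 scale, the members' median level was 0.41 in Notch2 cKO Em4 and 0.00 in WT Em4, and lower in Notch1 cKO Em8 (-0.03), WT Em2 (-0.12) and Notch2 cKO Em3 (-0.19).

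**Figure D1:**
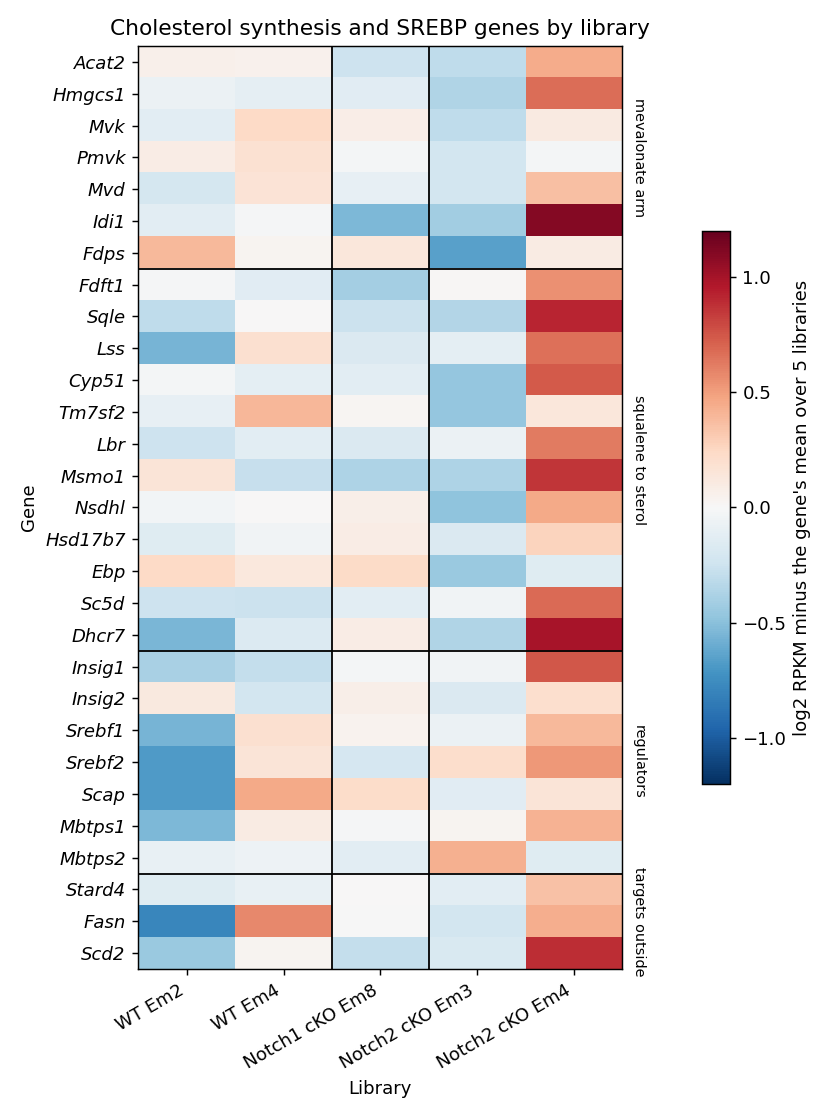
Level of each member (rows, ordered by role and divided by lines) in each library (columns), as log2 RPKM minus the gene's mean over the 5 libraries. The Notch2 cKO Em4 column is the highest for 21 of 29 members, where 33.3% of all tested genes were highest there.

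Between the 2 libraries of the same genotype the members were not spread around equality. Notch2 cKO Em4 was at least 1.5-fold above Notch2 cKO Em3 for 16 of 29 members and at least 1.5-fold below it for 0 of 29, where 8.35% of all tested genes were at least 1.5-fold above and 13.3% at least 1.5-fold below. The median ratio was 1.57 over the members and 0.992 over all tested genes. In total 28 of 29 members had a ratio above 1, with Mbtps2 (0.677) as the exception. Just inside the threshold lay Tm7sf2 with a ratio of 1.51, and just outside it lay Mvd with 1.49. Both libraries belong to one group, so this difference is a description without a test. The column names of the pair also end in different digits, whose meaning the sources used here do not state.

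Notch2 cKO Em4 shares its digits with WT Em4, and Notch2 cKO Em3 shares them with Notch1 cKO Em8. Notch2 cKO Em4 was at least 1.5-fold above WT Em4 for 11 of 29 members, where 12.1% of all tested genes were, and the median ratio was 1.33 over the members and 1.02 over all genes. Notch2 cKO Em3 was at least 1.5-fold below Notch1 cKO Em8 for 2 of 29 members, Fdps and Ebp, where 6.76% of all genes were, and the median ratio was 0.923 over the members and 1.11 over all genes. The part of the digits in the result was not tested.

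**Figure D2:**
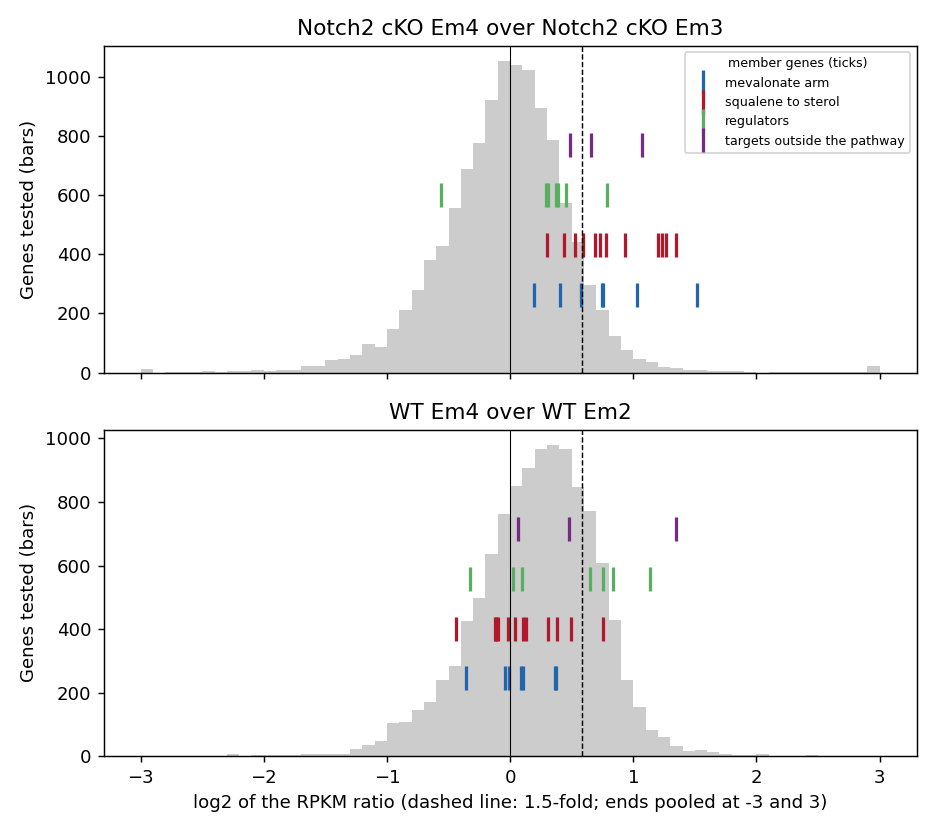
Distribution over all tested genes (bars) of the log2 ratio between the 2 Notch2 cKO libraries (top) and between the 2 WT libraries (bottom), with the members as ticks coloured by role. In the top panel 28 of 29 ticks lie right of 0 and 16 reach the dashed line at 1.5-fold; in the bottom panel 6 reach it.

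In the mevalonate arm, 4 of 7 genes were at least 1.5-fold higher in Notch2 cKO Em4 than in Notch2 cKO Em3, with a median ratio of 1.68. Acat2 (chr17:12942890-12960747), the thiolase that joins acetyl-CoA units, stood at 48.2 and 47.8 RPKM in the WT libraries, 38.8 RPKM in Notch1 cKO Em8, and 37.3 and 63.0 RPKM in Notch2 cKO Em3 and Notch2 cKO Em4. Hmgcs1 (chr13:119690379-119708260), the HMG-CoA synthase of this pathway, was at 28.3 and 27.6 RPKM in WT, 27.0 RPKM in Notch1 cKO Em8, 23.1 RPKM in Notch2 cKO Em3 and 47.3 RPKM in Notch2 cKO Em4. For both genes the Notch2 cKO libraries bracketed the WT pair. The strongest split of all members was that of Idi1 (chr13:8885501-8892451), the isomerase that makes the reactive isoprene unit: 8.64 RPKM in Notch2 cKO Em3 and 24.8 RPKM in Notch2 cKO Em4, a ratio of 2.87 that ranked 62nd of 11537 genes with a ratio. Its other values were 10.6 and 11.4 RPKM in WT and 7.93 RPKM in Notch1 cKO Em8, and the reads behind the Notch2 cKO pair were 514 and 2048.

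Mvk (chr5:114444269-114460591), mevalonate kinase, had 19.4 and 25.0 RPKM in WT, 22.4 RPKM in Notch1 cKO Em8, and 17.2 and 22.8 RPKM in Notch2 cKO Em3 and Notch2 cKO Em4. Pmvk (chr3:89454541-89469013), the next kinase, had 39.7 and 42.2 RPKM in WT, 36.6 RPKM in Notch1 cKO Em8, and 32.0 and 36.6 RPKM in the Notch2 cKO pair. Both were highest in WT Em4, and Pmvk was lower in both Notch2 cKO libraries than in both WT libraries. Mvd (chr8:122433601-122443422), the decarboxylase, went from 11.7 to 17.5 RPKM within the Notch2 cKO pair, around 11.8 and 15.3 RPKM in WT and 12.7 RPKM in Notch1 cKO Em8. Fdps (chr3:89093588-89101959), farnesyl diphosphate synthase, was the most abundant member, with 70.7 RPKM in Notch2 cKO Em3, 119 RPKM in Notch2 cKO Em4, 146 and 114 RPKM in WT and 122 RPKM in Notch1 cKO Em8. Its Notch2 cKO Em3 value was the lowest of the members relative to Notch1 cKO Em8, with a ratio of 0.581. Its ratio within the Notch2 cKO pair (1.68) thus came with a Notch2 cKO Em4 value inside the range of the other libraries. Fdps shares 1124 exon bases with Gm43738 on the same strand, so part of its reads could belong to either.

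In the sterol arm, 9 of 12 genes were at least 1.5-fold higher in Notch2 cKO Em4 than in Notch2 cKO Em3, also with a median ratio of 1.68, and 10 of 12 were highest in Notch2 cKO Em4. Sqle (chr15:59315077-59331192), squalene epoxidase and a rate-limiting step of this arm, stood at 24.3 and 30.1 RPKM in WT, 25.2 RPKM in Notch1 cKO Em8, 23.6 RPKM in Notch2 cKO Em3 and 56.5 RPKM in Notch2 cKO Em4. Cyp51 (chr5:4081145-4104746), the lanosterol demethylase, had 24.3 and 22.7 RPKM in WT, 22.6 RPKM in Notch1 cKO Em8, 17.9 RPKM in Notch2 cKO Em3 and 41.2 RPKM in Notch2 cKO Em4. In both genes 4 libraries lay close together and Notch2 cKO Em4 stood apart above them. Msmo1 (chr8:64718139-64733792), the methyl sterol oxidase, reached 71.7 RPKM in Notch2 cKO Em4 from 30.6 RPKM in Notch2 cKO Em3, with 43.9 and 32.5 RPKM in WT and 30.6 RPKM in Notch1 cKO Em8. Dhcr7 (chr7:143823145-143848410), which makes cholesterol from its last precursor, was low throughout, at 2.75 and 3.59 RPKM in WT, 4.29 RPKM in Notch1 cKO Em8 and 3.15 RPKM in Notch2 cKO Em3, and reached 8.01 RPKM in Notch2 cKO Em4. Its ratio within the Notch2 cKO pair was 2.54, from 184 and 650 reads.

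Next come Lbr (chr1:181815335-181843046), a sterol reductase that also anchors chromatin to the nuclear envelope, and Sc5d (chr9:42251595-42264256), the sterol desaturase. Both were higher in Notch2 cKO Em3 than in the WT libraries and Notch1 cKO Em8, which Sqle, Cyp51, Msmo1 and Dhcr7 were not. Lbr had 40.1 and 43.8 RPKM in WT, 42.4 RPKM in Notch1 cKO Em8, 45.5 RPKM in Notch2 cKO Em3 and 73.5 RPKM in Notch2 cKO Em4. Sc5d had 9.67 and 9.55 RPKM in WT, 10.5 RPKM in Notch1 cKO Em8, 11.1 RPKM in Notch2 cKO Em3 and 18.3 RPKM in Notch2 cKO Em4. In both, each Notch2 cKO library lay above both WT libraries, and Notch2 cKO Em4 lay further above them than Notch2 cKO Em3. Fdft1 (chr14:63145150-63179578), squalene synthase, showed the same order with 46.4 and 42.6 RPKM in WT, 35.4 RPKM in Notch1 cKO Em8, and 47.5 and 68.4 RPKM in Notch2 cKO Em3 and Notch2 cKO Em4. Fdft1 shares 774 exon bases with Ctsb on the opposite strand, and the library kit keeps no strand. Ctsb itself was at 38.9 and 61.3 RPKM in the same pair, so the reads of these genes cannot be told apart there. The same limit holds for other members that share exon bases with a gene on the opposite strand. These are Scap (985 bases), Hmgcs1 (557), Lbr (440), Lss (381), Idi1 (323), Cyp51 (166) and Srebf1 (109).

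The remaining genes of the sterol arm had ratios within the Notch2 cKO pair from 1.23 for Ebp to 1.91 for Nsdhl. Lss (chr10:76531588-76557138), which closes the sterol rings, was at 3.14 and 5.30 RPKM in WT, 4.11 RPKM in Notch1 cKO Em8, and 4.27 and 7.32 RPKM in Notch2 cKO Em3 and Notch2 cKO Em4. Nsdhl (chrX:72918557-72958514), a decarboxylating sterol dehydrogenase, was at 10.7 and 11.0 RPKM in WT, 11.5 RPKM in Notch1 cKO Em8, and 7.83 and 15.0 RPKM in the Notch2 cKO pair. Both were highest in Notch2 cKO Em4, but the WT pair of Lss was itself 1.69-fold apart. Hsd17b7 (chr1:169949535-169969241), a sterol ketone reductase, ran from 6.01 RPKM in Notch2 cKO Em3 to 8.15 RPKM in Notch2 cKO Em4, with WT at 6.15 and 6.60 RPKM and Notch1 cKO Em8 at 7.24 RPKM. Tm7sf2 (chr19:6062821-6068373), a second sterol reductase, had 2.94 and 4.14 RPKM in WT, 3.20 RPKM in Notch1 cKO Em8, and 2.28 and 3.45 RPKM in the Notch2 cKO pair, and shares 532 exon bases with Vps51. Ebp (chrX:8185329-8193512), the sterol isomerase, was the only gene of this arm that lay below both WT libraries in both Notch2 cKO libraries: 20.3 and 25.0 RPKM beside 32.7 and 30.2 RPKM, with 32.4 RPKM in Notch1 cKO Em8.

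**Figure D3:**
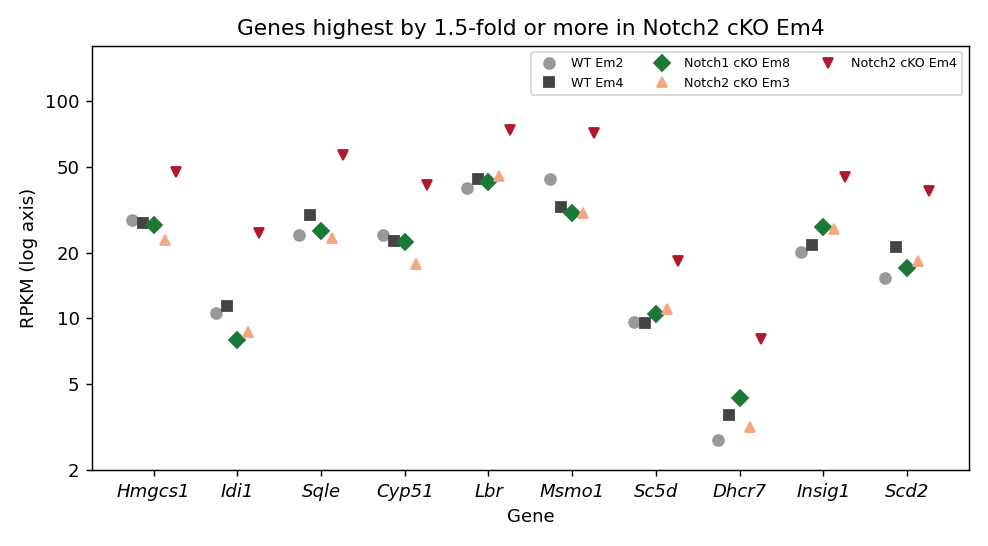
RPKM (log axis) in each library for the 10 members whose Notch2 cKO Em4 value is at least 1.5-fold above each of the other 4 libraries. For these genes Notch2 cKO Em3 sits with the WT and Notch1 cKO libraries and Notch2 cKO Em4 stands above all of them.

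Notch2 cKO Em4 was at least 1.5-fold above each other library for 10 of 29 members: Hmgcs1, Idi1, Sqle, Cyp51, Lbr, Msmo1, Sc5d, Dhcr7, Insig1 and Scd2. Of all tested genes 3.63% met the same condition. The ratio to the next highest library was largest for Idi1 (2.17) and smallest for Lbr (1.62).

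The regulators split less. In this group 1 of 7 genes, Insig1, was at least 1.5-fold higher in Notch2 cKO Em4 than in Notch2 cKO Em3, and the median ratio was 1.29. Insig1 (chr5:28071363-28078662), the sterol-sensing retention factor that is itself an SREBP target, had 20.3 and 21.8 RPKM in WT, 26.3 RPKM in Notch1 cKO Em8, 25.9 RPKM in Notch2 cKO Em3 and 44.7 RPKM in Notch2 cKO Em4. All 3 knockout libraries lay above both WT libraries. Insig2 (chr1:121304353-121332589), its paralogue, stayed between 16.7 RPKM in WT Em4 and 22.3 RPKM in Notch2 cKO Em4, with 21.0 RPKM in WT Em2, 20.4 RPKM in Notch1 cKO Em8 and 17.2 RPKM in Notch2 cKO Em3.

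Srebf2 (chr15:82147181-82205379), which encodes the SREBP that mainly drives sterol synthesis, had 20.5 and 36.6 RPKM in WT, 28.7 RPKM in Notch1 cKO Em8, and 38.1 and 47.2 RPKM in the Notch2 cKO pair. Srebf1 (chr11:60199089-60222581), which encodes the SREBP forms that mainly drive fatty acid synthesis, had 6.57 and 11.1 RPKM in WT, 10.0 RPKM in Notch1 cKO Em8, and 9.25 and 12.7 RPKM in the Notch2 cKO pair. In both genes WT Em2 was the lowest library. Scap (chr9:110333288-110384950), the escort protein, had 3.94 and 8.66 RPKM in WT, 7.36 RPKM in Notch1 cKO Em8, and 5.74 and 7.03 RPKM in the Notch2 cKO pair. Mbtps1 (chr8:119508156-119558735), the first protease, had 13.8 and 21.5 RPKM in WT, 19.9 RPKM in Notch1 cKO Em8, and 20.6 and 26.8 RPKM in the Notch2 cKO pair. These 4 genes were the regulators in which WT Em4 was at least 1.5-fold above WT Em2. Mbtps2 (chrX:157535371-157598715), the second protease, went the other way from the enzymes, with 4.05 RPKM in Notch2 cKO Em3 and 2.74 RPKM in Notch2 cKO Em4 beside 2.85 and 2.89 RPKM in WT and 2.76 RPKM in Notch1 cKO Em8. The annotated gene Yy2 lies within it on the same strand and shares 2867 exon bases, and Yy2 was listed at 6.32 RPKM in Notch2 cKO Em3 and 4.46 RPKM in Notch2 cKO Em4.

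The WT pair was read in the same way. WT Em4 was at least 1.5-fold above WT Em2 for 6 of 29 members (Lss, Srebf1, Srebf2, Scap, Mbtps1 and Fasn), where 22.5% of all tested genes were, so that the members as a whole were near the background. The median ratio was 1.56 over the 7 regulators and 1.06 over the 19 enzymes, beside 1.19 over all tested genes. Within the Notch2 cKO pair the order was reversed, with 1.29 over the regulators and 1.68 over the enzymes. These medians by role are given for the reported scaling alone, and the difference between the roles was not tested. The count for the WT pair depended on scaling: it was 3 with median-of-ratios scaling, 11 with libraries rescaled to the same sum and 2 with the length trend removed, and the share over all genes moved with it, to 8.07%, 44.1% and 7.23%.

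Of the 3 SREBP targets outside the pathway, Scd2 (chr19:44293674-44306864), a fatty acid desaturase, followed the enzymes with 15.3 and 21.3 RPKM in WT, 17.1 RPKM in Notch1 cKO Em8, 18.4 RPKM in Notch2 cKO Em3 and 38.7 RPKM in Notch2 cKO Em4. Stard4 (chr18:33199355-33213862), a sterol carrier, had 13.4 and 14.0 RPKM in WT, 14.9 RPKM in Notch1 cKO Em8, and 13.6 and 19.0 RPKM in the Notch2 cKO pair. Fasn (chr11:120805846-120824547), fatty acid synthase, was highest in WT Em4, at 5.45 RPKM, and lowest in WT Em2, at 2.13 RPKM, with 3.64 RPKM in Notch1 cKO Em8 and 3.14 and 4.94 RPKM in the Notch2 cKO pair. Its WT pair was 2.55-fold apart, the widest WT split among the members.

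Notch2 cKO was compared with WT to read these genes in fetuses labelled as lacking Notch2 in the Pax7 lineage. No member passed limma's test (log2 of RPKM + 1, all 5 libraries, Benjamini-Hochberg over 11543 genes, threshold 0.05), where 62 genes, or 0.537% of those tested, did. At an unadjusted p under 0.05 there were 2 members, Insig1 and Srebf2, where 7.63% of all genes were. Limma voom on the recovered reads called 0 members, but only 1 gene in all, so its 0 adds little. Insig1 had the lowest p among members, with a log2 fold change of 0.67 (SE 0.28, limma adjusted p = 0.511). Srebf2 followed with 0.61 (SE 0.27, limma adjusted p = 0.569), a value that was 0.21 without WT Em2, its lowest library, and 1.01 without WT Em4. The members' log2 fold changes ran from -0.49 for Fdps to 0.67, with a median of 0.22 beside 0.14 over all genes tested. Of the members 24 of 29 were above 0, but an all-gene median of 0.14 puts most genes tested above 0 too. The exact share over all genes was not taken, here or with median-of-ratios scaling. With median-of-ratios scaling the median over all genes was -0.00, a shift of more than 0.1 that comes from the scaling factors of whole libraries; there the members' median was 0.06 and 18 members were above 0.

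Both Notch2 cKO libraries lay above both WT libraries for 5 of 29 members (Fdft1, Lbr, Sc5d, Insig1 and Srebf2), where 28.3% of all tested genes did so. Both lay below for 2 members, Pmvk and Ebp, where 9.44% of all genes did. Neither count exceeded the background share. With a single Notch2 cKO library the picture depended on which one was kept. Without Notch2 cKO Em3 the members' median log2 fold change was 0.51 beside 0.12 over all genes. Without Notch2 cKO Em4 the median was -0.11 beside 0.14 over all genes. In such a fit only WT keeps more than 1 library, so the spread within groups comes from the WT pair alone.

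**Figure D4:**
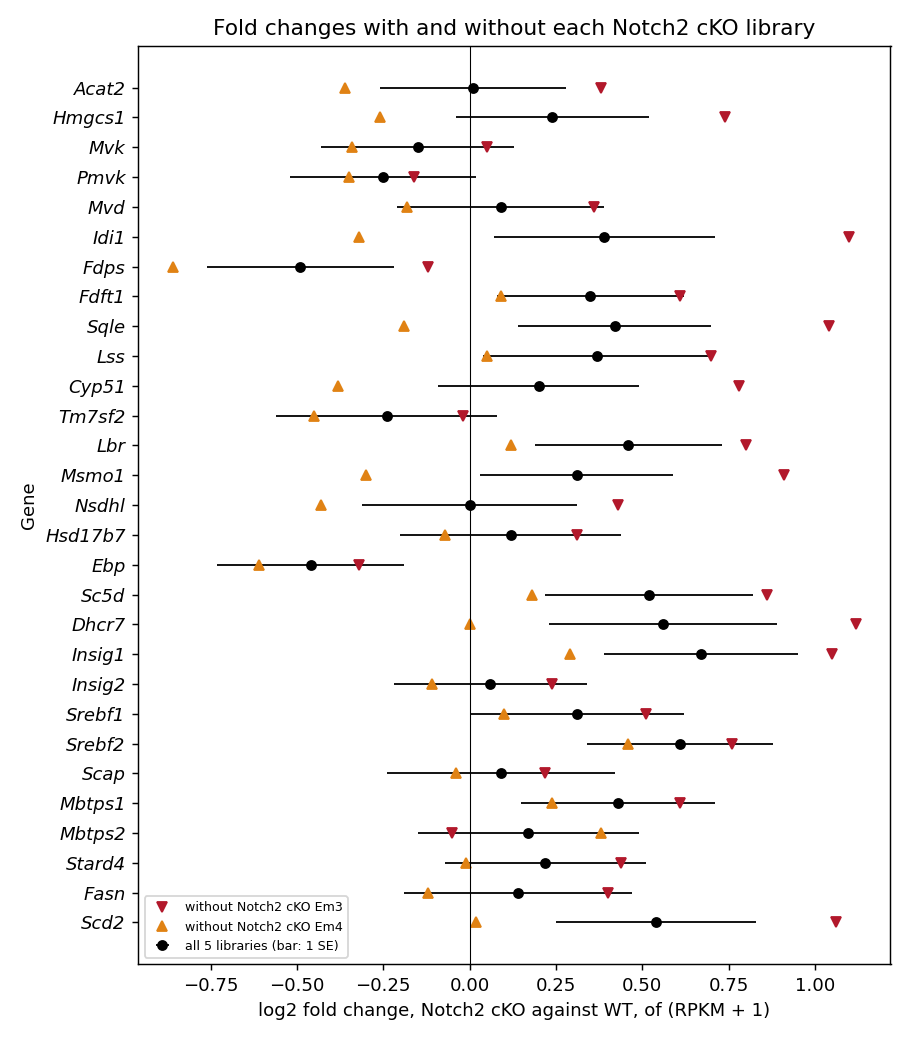
Log2 fold change of each member in Notch2 cKO against WT, of RPKM + 1, fitted with all 5 libraries (black, bar 1 SE) and without either Notch2 cKO library (triangles). The median over the members is 0.22 with all libraries, 0.51 when Notch2 cKO Em3 is left out and -0.11 when Notch2 cKO Em4 is.

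Notch1 cKO was compared with WT in the same way, from 1 knockout library. Again 0 members were called, where 8 genes, or 0.0693% of those tested, were. At an unadjusted limma p under 0.05 there were 0 members, where 1.85% of genes were. Limma voom also called 0 members, but only 3 genes in all. The members' median log2 fold change was 0.02 beside 0.01 over all genes. Of the members 16 of 29 were above 0, and the share of all genes above 0 was not taken. The range ran from -0.43 for Idi1 (SE 0.39) to 0.35 for Dhcr7 (SE 0.41), and the limma adjusted p was 1 for every member. Notch1 cKO Em8 lay above both WT libraries for 6 members (Nsdhl, Hsd17b7, Sc5d, Dhcr7, Insig1 and Stard4), where 24.3% of all genes did. It lay below both for 8 members (Acat2, Hmgcs1, Pmvk, Idi1, Fdft1, Cyp51, Msmo1 and Mbtps2), where 26.1% of all genes did, so neither count stood out from all genes.

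The direct comparison of Notch2 cKO with Notch1 cKO called 0 members by limma, where 56 genes, or 0.485%, were called. Limma voom called 0 members as well, and 14 genes in all. Idi1 and Fdft1 had an unadjusted p under 0.05, where 8.66% of all genes did. Idi1 had a log2 fold change of 0.82 (SE 0.39, limma adjusted p = 0.539) and Fdft1 one of 0.67 (SE 0.32, limma adjusted p = 0.545). The members' median was 0.21 beside 0.12 over all genes, and became 0.44 with Notch2 cKO Em3 left out and -0.10 with Notch2 cKO Em4 left out. The 2 comparisons with Notch2 cKO share those libraries, and all 3 share one estimate of the spread.

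Other genes of lipid metabolism, from lists chosen with earlier results of these data known, were read for the same split, and none of them was called in any comparison by limma. Of 16 tested fatty acid and lipid genes that SREBP factors are known to regulate, 6 were at least 1.5-fold higher in Notch2 cKO Em4 than in Notch2 cKO Em3 and 1 at least 1.5-fold lower. The most abundant of them were Tmem97, a sterol-binding membrane protein (62.3 RPKM in Notch2 cKO Em3 and 90.9 RPKM in Notch2 cKO Em4), Acsl3, an acyl-CoA synthetase (28.7 and 57.1 RPKM), and Pcyt2, an enzyme of phospholipid synthesis (20.9 and 26.2 RPKM). Tmem97 stood at 93.1 and 90.3 RPKM in WT, so its Notch2 cKO Em4 value was at the WT level, while Acsl3 stood at 32.0 and 34.8 RPKM in WT, below its Notch2 cKO Em4 value. The branches that use isoprenoids for other products had 1 of 10 tested genes at 1.5-fold or more and a median ratio of 1.03; Fnta, a farnesyltransferase subunit, had 57.1 and 72.0 RPKM, Coq2, an enzyme of ubiquinone synthesis, 40.2 and 42.0 RPKM, and Ggps1, geranylgeranyl diphosphate synthase, 22.1 and 21.5 RPKM. Uptake, lysosome and esterification genes had 1 of 10 and a median of 1.08, with Npc2, a lysosomal sterol carrier, at 43.9 and 47.6 RPKM, Gramd1a, a sterol transfer protein, at 18.5 and 18.3 RPKM and Soat1, which esterifies cholesterol, at 10.7 and 11.5 RPKM. Of 3 tested LXR targets and factors, 1 reached 1.5-fold: Lpcat3, a phospholipid acyltransferase, with 11.4 and 20.0 RPKM, while Nr1h2, an LXR receptor, had 20.2 and 23.1 RPKM and Mylip, a ubiquitin ligase, 3.43 and 3.12 RPKM. Of the ER degradation factors, Erlin1, a membrane scaffold, had 9.60 and 16.2 RPKM (a ratio of 1.69) and Rnf139, a ubiquitin ligase, 11.1 and 14.0 RPKM (1.26). Erlin2, the paralogue of Erlin1 (8.95 and 16.9 RPKM), and Rnf145, a ligase (5.69 and 8.56 RPKM), named after their values were seen, also reached 1.5-fold.

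Markers of other cells and states also differed in the library with high sterol genes. The 6 tendon and cartilage markers summed to 128 RPKM in Notch2 cKO Em4 and to 45.3 to 66.9 RPKM elsewhere. Their most abundant gene, Scx, a tendon transcription factor, was level at 30.5 to 37.9 RPKM in all libraries. Most of the excess lay in Col2a1, the cartilage collagen, named after its values were seen, at 0.648 RPKM in Notch2 cKO Em3, 55.4 RPKM in Notch2 cKO Em4 and 1.88 to 7.62 RPKM in the other libraries. Col2a1 was not alone: of the 5 tested genes of this list, 4 were at least 1.5-fold higher in Notch2 cKO Em4 than in Notch2 cKO Em3. Matn3, also named after its values were seen, had 0.304 and 7.95 RPKM in that pair. Acan, likewise so named and below the filter, had 0.111 and 1.90 RPKM. The 5 interstitial fibroblast markers, led by Col3a1, summed to 293 RPKM in Notch2 cKO Em4, 176 RPKM in Notch2 cKO Em3 and 105 to 266 RPKM in the others. The 6 ER stress genes, led by the chaperone Hspa5 at 588 RPKM, summed to 866 RPKM in Notch2 cKO Em4 and to 600 to 689 RPKM elsewhere. Their median ratio within the Notch2 cKO pair was 1.10, and Atf4 (0.711) and Ddit3 (0.725), stress transcription factors, were lower in Notch2 cKO Em4. Tyrobp, a myeloid adaptor among the haematopoietic markers, was at 0.847 RPKM in Notch2 cKO Em3, 4.88 RPKM in Notch2 cKO Em4 and 0.936 to 1.69 RPKM elsewhere. Both sets of genes were named after their values were seen. Pax7, the progenitor factor, also named after its values were seen, was at 4.15 RPKM in Notch2 cKO Em4 and 9.90 to 13.4 RPKM elsewhere. The part of these markers in the result was not tested.

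Other marker lists did not separate the Notch2 cKO pair in the same way. The 8 myogenic markers summed to 2229 RPKM in Notch2 cKO Em3 and 2407 RPKM in Notch2 cKO Em4, beside 1432 to 1941 RPKM elsewhere. The 8 proliferation genes, led by Pcna, summed to 822 RPKM in Notch2 cKO Em3, 894 RPKM in Notch2 cKO Em4 and 850 to 951 RPKM in the others. Of these genes 0 were at least 1.5-fold higher in Notch2 cKO Em4 than in Notch2 cKO Em3 and 1 at least 1.5-fold lower. That gene, Mki67, named after its values were seen, was at 30.7 RPKM in Notch2 cKO Em3 and 18.3 RPKM in Notch2 cKO Em4. The 5 adipocyte markers, led by Fabp4, summed to 104 RPKM in Notch2 cKO Em3 and 85.6 RPKM in Notch2 cKO Em4, and the 5 measured erythroid markers, led by Hba-a2, to 366 and 312 RPKM, so neither was higher in the library with high sterol genes. Endothelial markers, led by Tek, stayed at 3.23 to 5.55 RPKM in sum. Haematopoietic markers summed to 8.71 to 11.6 RPKM, led by Cd68, which was at 7.27 RPKM in Notch2 cKO Em3 and 5.13 RPKM in Notch2 cKO Em4, against the direction of Tyrobp. None of the markers in these lists was at 0 in every library. In bulk libraries, more cells of a kind and more RNA per cell cannot be told apart.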

How the data were processed

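The 5 libraries of sorted-cell RNA were prepared with SMART-Seq v4, a kit that keeps no strand, and sequenced as paired ends, per the labels' protocols. The authors deposited RPKM values for 27179 rows, of which 1306 have no gene name and were left out. Per the submitters' processing notes, bcl2fastq 2.20.0 and build mm10 were used; for aligner, counting tool and annotation the sources used here give nothing. Column names show the group and no replicate number, and columns were mapped to groups alone.

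Whole reads were recovered from the deposited RPKM values: at the totals found, 97.9% of 9931 genes had a whole gene length within a tolerance of 0.02 bases. Reads carry no molecular identifiers.

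The test was limma 3.58.1 (lmFit, eBayes with a trend; R 4.3.3) on log2(RPKM + 1), with a mean per group over all 5 libraries, for the 11543 genes whose mean reached 1 RPKM. P-values are two-sided, Benjamini-Hochberg adjusted over all of them, threshold 0.05. Residual degrees of freedom were 2 and prior ones 103.8. The SE of a gene thus came mostly from the trend over all genes, and a wide split within its pair raised it little. Fold changes on this scale understate low genes. For the single Notch1 cKO library the spread of the others was assumed. The fit was tested on simulated data, where more calls were false than the threshold allows, so the counts called over all genes may be somewhat high. Ratios between libraries use RPKM without a pseudocount.

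All members are named; of the other pathway lists, called genes and the 3 most abundant tested genes; of the marker lists, the most abundant gene. Some results that this rule would name are not reported here. The members and all lists were chosen with earlier results of these data known. Gene coordinates and exon overlaps are from GENCODE vM21 (GRCm38), the build of the files. Alternatives were pseudocounts of 0.1 and 0.5, no filter, a mean of at least 5 RPKM, median-of-ratios scaling, libraries rescaled to the same sum, a length trend removed, limma voom on recovered reads and leaving out each library.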

Additional observations from a re-analysis of the deposited data

How the results depend on the processing

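Under 13 alternative settings no member was called in any comparison that could be fitted. The comparisons with Notch1 cKO could not be fitted without its only library. Of 1058 member fold changes 90 took the other sign, none of them called. Some settings called hardly any gene, so 0 members there says little. Without a filter 0 genes were called in every comparison. With the length trend removed 2 genes were called in Notch2 cKO against WT and 0 in the others. Limma voom called 1 to 14 genes. Leaving out each library in turn, the members' median log2 fold change ran from -0.11 to 0.51 in Notch2 cKO against WT and from -0.10 to 0.44 in Notch2 cKO against Notch1 cKO, with the low ends without Notch2 cKO Em4 and the high ends without Notch2 cKO Em3. Scaling alternatives for the counts by library were chosen after seeing the data. The count of members at least 1.5-fold higher in Notch2 cKO Em4 than in Notch2 cKO Em3 stayed at 15 to 17, beside 7.72% to 9.03% of all genes, and that of members highest in Notch2 cKO Em4 at 20 to 22, beside 27.7% to 38.7%. The count at least 1.5-fold higher in WT Em4 than in WT Em2 was 6 as reported, 3 with median-of-ratios scaling, 11 with libraries rescaled to the same sum and 2 with the length trend removed, beside 22.5%, 8.07%, 44.1% and 7.23% of all genes in that order; the count with both Notch2 cKO libraries above both WT libraries was 5 as reported, 2 with median-of-ratios scaling and 2 with the length trend removed; the count below was 2 as reported, 4 with median-of-ratios scaling and 1 with the same sum. For the last 2 sets the shares over all genes were 28.3% above and 9.44% below as reported. They were not taken under the other scalings, so the counts there have no background beside them. The cause of the last 2 sets of changes was not tested. Over all genes, calls in Notch2 cKO against WT ranged from 0 with no filter to 287 without WT Em4, beside 62 as reported. No paired analysis was possible because the columns carry no replicate numbers. WT Em2 shares its column digits with no other library. With the digits taken as written, a fit that uses them as a block would leave no residual degrees of freedom. Members had at least 70 reads in every library, and the tests rest on 1 or 2 libraries per group.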
